A study of Mus musculus with 5 samples.

Results

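Matrix metalloproteinases (MMPs), the ADAMTS proteases and the tissue inhibitors of metalloproteinases (TIMPs) were followed across 5 total RNA libraries of mouse dorsolateral prostate. Members were taken by gene symbol alone (Mmp or Adamts followed by a number, and Timp1 to Timp4), which gave 46 of the 51912 genes listed, made up of 23 MMPs, 19 ADAMTS proteases and 4 TIMPs. Mmp1a was kept by its symbol, although GENCODE release M21 lists it as a polymorphic pseudogene. The 3 control libraries came from male mice homozygous for loxP-flanked Ghr, the growth hormone receptor gene (Ghrflox/flox), without Cre. The 2 other libraries, labelled Ghr deletion, came from Ghrflox/flox males that also carried 1 copy of ROSA26Cre-ERT2, a tamoxifen-activated Cre recombinase expressed from a locus that is active in most cell types, so the deletion was not aimed at the prostate. All mice were 3 months old, all received tamoxifen at 250 mg/kg on each of 5 days, and prostates were collected 1 month after the last dose. The labels describe the samples of a group as biological replicates.

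MMPs are zinc endopeptidases that are made as inactive proenzymes and cleave collagens, other matrix proteins and cell surface proteins once the propeptide is removed. ADAMTS proteases are secreted relatives with thrombospondin repeats that cut proteoglycans of the versican and aggrecan kind, procollagens and von Willebrand factor. TIMPs bind the active site of MMPs with high affinity, and Timp3, which is held in the matrix, also inhibits several ADAMTS proteases. In the prostate this system acts at the border of epithelium and stroma, in ductal branching and in the involution that follows androgen withdrawal.

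Libraries held 19517831 to 41553558 expected counts (RSEM's estimate of the reads from a gene). Ghr, counted over the whole gene, had 10.1, 11.8 and 13.2 CPM in control replicates 1 to 3. In replicates 1 and 2 of the group labelled Ghr deletion it had 21.5 and 10.2 CPM. A count over the whole gene need not fall when only its loxP-flanked part is lost. It therefore does not decide whether Ghr was deleted, and these are called the deletion-labelled libraries after their label. CPM here are counts over a library size scaled by TMM, used to compare libraries, and TPM are RSEM's transcript abundances, which account for gene length and are used to compare genes within a library. Of the marker lists, 7 secretory genes of the distal dorsolateral prostate summed to 2983, 3156 and 6.53 CPM in the controls and to 1.66 and 179 CPM in the deletion-labelled libraries. In control replicate 1 that sum was nearly all Spink1, at 2937 CPM, while Tgm4 had 17.9 CPM there, 1604 CPM in control replicate 2 and 162 CPM in deletion-labelled replicate 2. Msmb and Spink1 were at 0 in deletion-labelled replicate 1, and Sbp was at 0 in control replicate 3. The 8 seminal vesicle genes summed to between 234412 and 451761 CPM in the controls and to 104999 and 183272 CPM in the deletion-labelled libraries, and Svs1, Svs3a, Svs3b, Svs4, Svs5 and Svs6 were lower in control replicate 3 than in the other 2 controls, while Svs2 and Pate4 were highest there, at 140510 and 33092 CPM. The controls were thus unlike each other, and results of members that rest on control replicates 1 and 2 are also given without both.

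A run of 10 MMP genes lies on chromosome 9 (GRCm38, 7272514 to 7699585), from Mmp13 at its start to Mmp7 at its end. RefSeq promoter windows of 300 bases, 250 before the transcription start and 50 from it onward, were available for 32 of the 46 members in 35 windows. The AP-1 motif TGANTCA, which reads the same on both strands and is bound by Fos and Jun factors, occurred in 8 of these 35 windows and in 7.81% of all 32851 windows, and each of the 8 belonged to a different gene of the chromosome 9 run. All 8 windows also held the TATA motif (TATAAA, or TTTATA for the other strand), where 1.54% of all windows held both. The ETS-type PEA3 motif (AGGAAG, or CTTCCT for the other strand) occurred in 45.7% of the member windows and 35.4% of all windows. A match describes the letters of a window and not a bound site. The 100 bases before the start of 5 of these genes are printed because they share AP-1 and TATA matches, shown in capitals, while their counts differ widely. The windows are from RefSeq on GRCm38.p6, forward strand, at chr9:7691990-7692089 for Mmp7, chr9:7445722-7445821 for Mmp3, chr9:7272414-7272513 for Mmp13, chr9:7502242-7502341 for Mmp10 and chr9:7464041-7464140 for Mmp1a.
Mmp7: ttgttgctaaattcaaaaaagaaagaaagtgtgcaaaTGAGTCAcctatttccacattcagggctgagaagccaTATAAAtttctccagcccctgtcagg
Mmp3: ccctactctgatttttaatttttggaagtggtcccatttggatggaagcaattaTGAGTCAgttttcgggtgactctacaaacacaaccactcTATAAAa
Mmp13: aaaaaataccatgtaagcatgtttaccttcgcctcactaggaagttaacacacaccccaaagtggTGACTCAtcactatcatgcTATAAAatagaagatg
Mmp10: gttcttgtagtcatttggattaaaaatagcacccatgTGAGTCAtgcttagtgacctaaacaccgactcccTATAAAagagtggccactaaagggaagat
Mmp1a: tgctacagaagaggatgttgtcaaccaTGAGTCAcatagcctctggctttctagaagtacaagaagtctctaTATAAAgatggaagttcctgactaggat

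In Mmp7 and in Mmp10 the AP-1 match began 63 bases before the start, and the TATA match began 26 and 29 bases before it. In Mmp3 they began 46 and 7 bases before the start, in Mmp13 35 and 16 bases, and in Mmp1a 73 and 28 bases. Counts of these genes lay far apart. Mmp7 had 10, 597 and 347 expected counts in the controls, against 3689 and 404 in the deletion-labelled libraries. Mmp3 had at most 30 counts in any library, Mmp13 at most 12 and Mmp12 at most 38. Mmp1a, Mmp1b and Mmp20 had 0 counts in every library, which for counting error alone allows up to 3 counts per library. Mmp10 had 1 count in all 5 libraries together, Mmp27 had 2 and Mmp8 had 8, 6 of them in control replicate 2. Mmp12 and Mmp1b lie on opposite strands and share 157 exon bases, so reads from that stretch can be told apart only by strand.

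**Figure D1:**
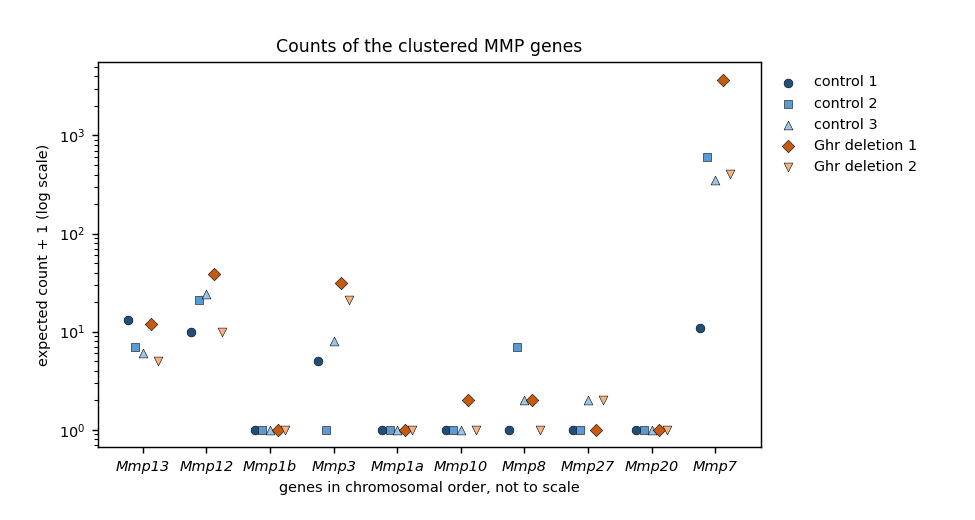
Expected count plus 1 (log scale) of the 10 MMP genes of chromosome 9 in each of the 5 libraries, with genes in chromosomal order along the horizontal axis. Mmp7 reached 3689 counts in deletion-labelled replicate 1 and 10 in control replicate 1, while Mmp1a, Mmp1b and Mmp20 sat at 0 counts throughout.

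Of the 46 members, 36 had enough counts to be tested, which left out Mmp1a, Mmp1b, Mmp8, Mmp10, Mmp20, Mmp21, Mmp25, Mmp27, Adamts13 and Adamts16. The highest count of an untested member was 14, for Adamts16. By edgeR's quasi-likelihood test, with Benjamini-Hochberg adjustment over all 18590 tested genes, 0 members passed an adjusted p of 0.05, where 0.00% of all tested genes passed. The smallest adjusted p among members was 0.874. At an unadjusted p under 0.05 there were 0 members on the higher side, against 1.16% of all tested genes, and 1 on the lower side, Mmp28, against 3.10%. DESeq2 called 0 members. Groups did not overlap in CPM for 3 members that were higher in the deletion-labelled libraries, Mmp3, Mmp11 and Adamts4 (8.33% of tested members, against 10.8% of all tested genes), and for 2 that were lower, Mmp28 and Adamts3 (5.56%, against 12.5%). The log2 fold change, deletion-labelled over control, was above 0 for 15 members and below 0 for 21. Its median was -0.079, beside -0.0063 for all tested genes. For a single value, 0.2 is the smallest two-sided p that an exact test of 3 against 2 libraries allows, and the p-values here are those of the fit across all genes.

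**Figure D2:**
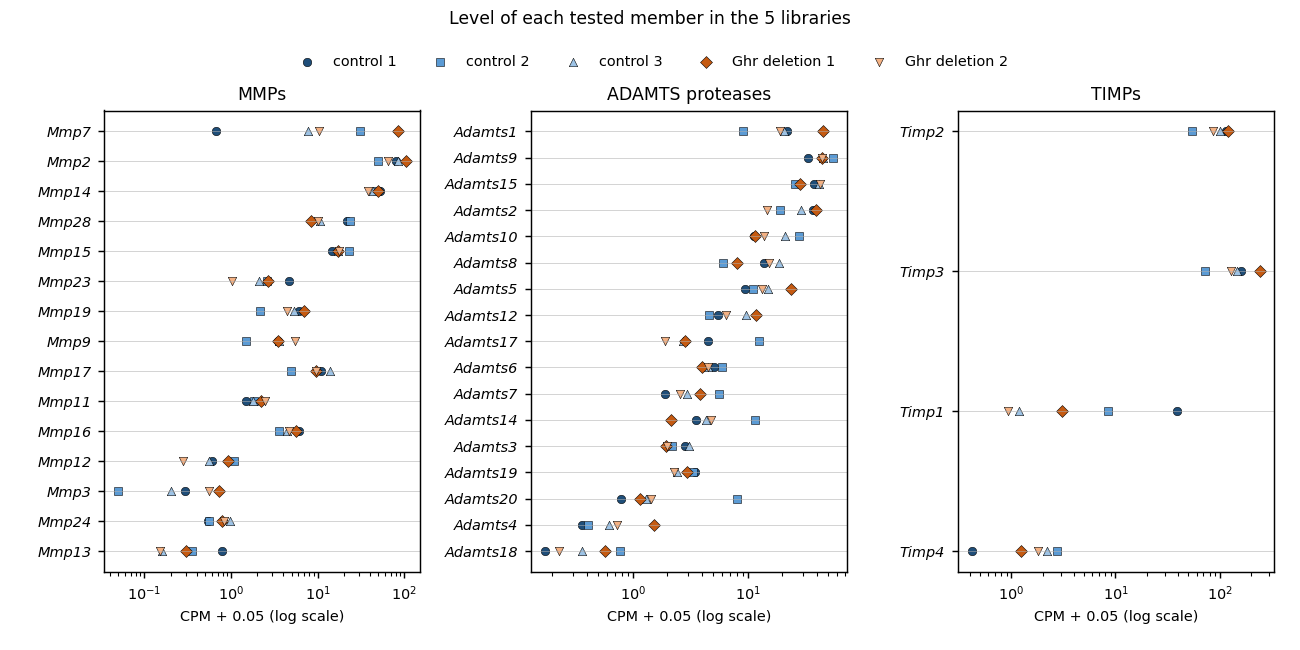
CPM plus 0.05 (log scale) of the 36 tested members in each library, 1 symbol per library, with genes ordered by mean TPM within each family. Mmp7 and Timp1 spread most widely among the abundant genes, from 0.617 to 83.7 and from 0.883 to 38.9 CPM, and Mmp3 at 0 CPM in control replicate 2 is drawn at 0.05.

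Of the gelatinases, Mmp2 was abundant in every library and Mmp9 was low. Mmp2, gelatinase A, which cleaves denatured collagen and type IV collagen and is made mainly by stromal cells (ENSMUSG00000031740, chromosome 8, 92827291 to 92853420), was among the 4 members with the highest TPM in every library. It had 81.2, 49.2 and 84.9 CPM in the controls, against 104.2 and 65.1 CPM in the deletion-labelled libraries. These groups overlapped, with control replicate 2 lowest and deletion-labelled replicate 1 highest, and the log2 fold change was 0.24 (SE 0.33, 95% confidence interval -0.58 to 1.06). Mmp9, gelatinase B, typical of neutrophils and macrophages (ENSMUSG00000017737, chromosome 2, 164940780 to 164955850), was far lower, at 3.40, 1.44 and 3.55 CPM against 3.47 and 5.38 CPM. Its log2 fold change was 0.66 (SE 0.48, -0.53 to 1.84), and the groups overlapped. The 9 myeloid markers summed to between 70.2 and 133 CPM in the controls and were at 139 and 75.3 CPM in the deletion-labelled libraries. Of the 7 tested, 4 had a log2 fold change above 0 and 3 below, and the neutrophil markers S100a8 and S100a9 had 4 counts each over all libraries. Their part in Mmp9 was not tested.

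Among matrilysin, the stromelysins and the collagenases, the tested members other than Mmp13 had log2 fold changes above 0. Mmp7, matrilysin, a small MMP without the hemopexin domain that is secreted by glandular epithelium (ENSMUSG00000018623, chromosome 9, 7692090 to 7699585), had 0.617, 30.7 and 7.65 CPM in the controls. It had 83.7 and 10.2 CPM in the deletion-labelled libraries. A single library of each group was high, control replicate 2 and deletion-labelled replicate 1, and the second deletion-labelled library lay within the control range. The log2 fold change of 1.86 had a standard error of 1.41 (-1.61 to 5.32), and without deletion-labelled replicate 1 it was -0.36.

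Mmp3, stromelysin 1, which cleaves proteoglycans and activates other proenzymes (ENSMUSG00000043613, chromosome 9, 7445822 to 7455975), had 4, 0 and 7 expected counts in the controls, against 30 and 20 in the deletion-labelled libraries. In CPM these were 0.247, 0 and 0.154 against 0.681 and 0.505. Each deletion-labelled value lay above each control value, with a log2 fold change of 2.12 (SE 0.95, -0.23 to 4.47, adjusted p = 0.874), and without control replicates 1 and 2 together it was 1.93. Mmp11, stromelysin 3, a stromal MMP activated inside the cell by furin (ENSMUSG00000000901, chromosome 10, 75923222 to 75936496), had 1.42, 1.80 and 1.76 CPM in the controls. Its 2.18 and 2.42 CPM in the deletion-labelled libraries were both higher, by 0.47 on the log2 scale (SE 0.35, -0.39 to 1.32). Its range with any single library left out was 0.37 to 0.54. Mmp13, a collagenase, ran from 0.101 to 0.741 CPM over the 5 libraries, with the highest value in control replicate 1 (log2 fold change -1.03, SE 0.97).

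Membrane-type MMPs sit at the cell surface, and 0 of the 5 tested separated the groups. Of all tested genes, 10.8% did so on the higher side and 12.5% on the lower side. Mmp14, the membrane-type MMP that activates the Mmp2 proenzyme together with Timp2 (ENSMUSG00000000957, chromosome 14, 54431612 to 54445364), had 52.5, 48.2 and 42.9 CPM in the controls, against 49.3 and 37.6 CPM in the deletion-labelled libraries. Groups overlapped, and the interval of its log2 fold change, -0.66 to 0.38, leaves out a 2-fold difference in either direction. Mmp15 ran from 14.7 to 22.7 CPM, with an interval of -0.65 to 0.55. For Mmp16 (log2 fold change 0.15), Mmp17 (-0.07) and Mmp24 (0.20), levels ran from 3.49 to 5.99, from 4.88 to 13.98 and from 0.494 to 0.926 CPM. Mmp24 shares 637 exon bases with the opposite-strand gene BC029722. Mmp25, found mainly on leukocytes, was untested with 9 counts in all.

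Mmp28, epilysin, a furin-activated MMP of epithelia (ENSMUSG00000020682, chromosome 11, 83440768 to 83463071), had the smallest unadjusted p of all members (0.037). It had 22.04, 23.7 and 10.7 CPM in the controls against 8.30 and 9.92 CPM in the deletion-labelled libraries. Both deletion-labelled values were below each control, but control replicate 3 was nearer to them than to the other controls. The log2 fold change was -1.04 (SE 0.39, -2.00 to -0.09, adjusted p = 0.874 by edgeR), and without control replicates 1 and 2 together it was -0.23. In TPM the same libraries gave 3.25, 1.55 and 2.09 against 3.12 and 2.88, which overlapped. Relative to the all-gene median, which moved on these scales, its difference was -0.56 on log2(TPM + 1) and -0.89 on log2(TPM + 0.1). Mmp28 shares 466 exon bases with 1700020L24Rik on the opposite strand, whose level was between 0.340 and 1.61 CPM. Of the remaining tested MMPs, Mmp12, macrophage elastase, ran from 0.227 to 1.03 CPM (log2 fold change -0.34, SE 0.73). Mmp19 ran from 2.11 to 6.90 CPM (0.33, SE 0.50) and Mmp23 from 0.984 to 4.57 CPM (-0.76, SE 0.59). None of these separated the groups.

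**Figure D3:**
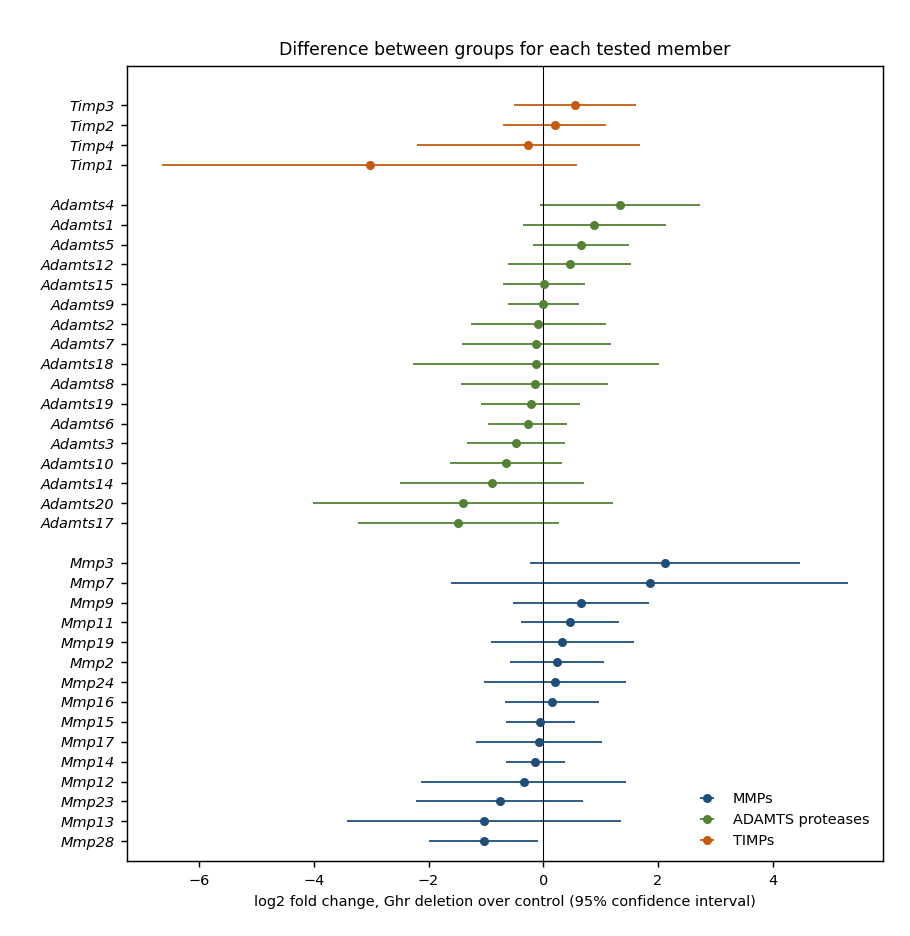
Log2 fold change (deletion-labelled over control) for each tested member, with 95% confidence intervals from edgeR, grouped by family and ordered by size. The interval of Mmp28, -2.00 to -0.09, lies below 0, each other interval includes 0, and Timp1 and Mmp7 have the widest intervals.

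Among ADAMTS proteases, the versican- and aggrecan-cleaving group held the most abundant members. Adamts1, an early response protease needed for normal urogenital development (ENSMUSG00000022893, chromosome 16, 85793827 to 85803113), had 21.8, 8.99 and 20.7 CPM in the controls, against 44.9 and 18.8 CPM in the deletion-labelled libraries. Its neighbour Adamts5, the major aggrecanase of mouse cartilage (ENSMUSG00000022894, chromosome 16, 85856173 to 85901828), had 9.32, 10.9 and 14.9 CPM against 23.8 and 13.2 CPM. For both, deletion-labelled replicate 1 was highest and deletion-labelled replicate 2 fell within the control range, and the log2 fold changes were 0.89 (SE 0.51, -0.36 to 2.15) and 0.66 (SE 0.34, -0.17 to 1.49). Adamts4, another aggrecanase (ENSMUSG00000006403, chromosome 1, 171250421 to 171260637), had 0.309, 0.360 and 0.573 CPM in the controls, against 1.48 and 0.681 CPM in the deletion-labelled libraries. These groups did not overlap, and the log2 fold change was 1.34 (SE 0.57, -0.06 to 2.73), or 0.69 without deletion-labelled replicate 1.

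Adamts9, a widely expressed versican-cleaving protease (ENSMUSG00000030022, chromosome 6, 92772699 to 92943492), had 33.1, 54.6 and 44.7 CPM in the controls, against 44.2 and 44.0 CPM in the deletion-labelled libraries. Both deletion-labelled values fell between control replicates, and the interval was -0.62 to 0.62. Adamts15 ran from 25.8 to 41.99 CPM (log2 fold change 0.01, SE 0.29). Adamts8, its neighbour on chromosome 9, ran from 6.06 to 18.4 CPM (-0.15, SE 0.52). Adamts20 was at 7.96 CPM in control replicate 2 and between 0.741 and 1.39 CPM in every other library. Its log2 fold change of -1.40 (SE 1.06) became 0.29 without that control.

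The procollagen N-proteinases trim the amino-terminal propeptide of fibrillar collagens. Adamts2 (ENSMUSG00000036545, chromosome 11, 50602084 to 50807573) was the most abundant of them, from 14.5 to 38.8 CPM, with the extremes in the 2 deletion-labelled libraries. Adamts3 (ENSMUSG00000043635, chromosome 5, 89677087 to 89883334) had 2.78, 2.16 and 3.02 CPM in the controls, all above its 1.91 and 1.92 CPM in the deletion-labelled libraries. The difference was -0.47 on the log2 scale (SE 0.35, -1.32 to 0.38, adjusted p = 0.874). Adamts14 (ENSMUSG00000059901, chromosome 10, 61197112 to 61273438) had 3.52, 11.4 and 4.23 CPM against 2.11 and 4.74 CPM, with control replicate 2 standing highest. Its log2 fold change was -0.90 (SE 0.65), and -0.18 without that control.

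Of the other ADAMTS genes, Adamts17, linked to fibrillin microfibrils (ENSMUSG00000058145, chromosome 7, 66839735 to 67153171), had 4.44, 12.3 and 2.67 CPM in the controls, against 2.77 and 1.84 CPM in the deletion-labelled libraries. Control replicate 2 was again highest, and the groups overlapped. The log2 fold change was -1.48 (SE 0.71, -3.24 to 0.27), -0.61 without control replicate 2 and -0.21 without control replicates 1 and 2 together. Adamts10, also a microfibril protease (ENSMUSG00000024299, chromosome 17, 33524204 to 33553782), had 11.2, 27.7 and 20.8 CPM against 11.6 and 13.7 CPM. Its groups overlapped through control replicate 1, and the log2 fold change was -0.66 (SE 0.40, -1.63 to 0.32). For the rest, log2 fold changes were 0.46 for Adamts12, -0.27 for Adamts6, -0.22 for Adamts19, -0.13 for Adamts18 and -0.12 for Adamts7. Adamts13, the liver-derived protease of von Willebrand factor, was untested with 7 counts in all.

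Timp2 and Timp3 had the highest TPM of all members in control replicate 3 and in deletion-labelled replicate 2. Timp2 (ENSMUSG00000017466, chromosome 11, 118301069 to 118355740), the inhibitor that also helps Mmp14 to activate Mmp2, had 114, 54.2 and 101 CPM in the controls, against 119 and 86.4 CPM in the deletion-labelled libraries. Timp3 (ENSMUSG00000020044, chromosome 10, 86300372 to 86349506) had 161, 73.0 and 145 CPM against 242 and 129 CPM. In both genes control replicate 2 was lowest and deletion-labelled replicate 1 highest. Deletion-labelled replicate 2 fell within the control range in both, so the groups overlapped. Their log2 fold changes were 0.20 (SE 0.36, -0.69 to 1.09) and 0.55 (SE 0.43, -0.51 to 1.62). Timp4 (ENSMUSG00000030317, chromosome 6, 115241892 to 115252205), the least widely expressed inhibitor, had 0.370, 2.67 and 2.16 CPM in the controls, against 1.18 and 1.74 CPM in the deletion-labelled libraries, within the control range.

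Timp1 (ENSMUSG00000001131, chromosome X, 20870166 to 20874735), a secreted inhibitor that many stimuli induce, had the lowest log2 fold change of all members. Control replicates 1 to 3 had 38.9, 8.48 and 1.15 CPM, and the deletion-labelled libraries had 3.04 and 0.883 CPM. The controls alone spanned more than the distance between the groups, and control replicate 3 lay between the deletion-labelled libraries. The log2 fold change was -3.03 (SE 1.47, -6.65 to 0.60, adjusted p = 0.874). It was -1.28 without control replicate 1 and changed sign, to 0.78, without control replicates 1 and 2 together. Svs4, a seminal vesicle secretory gene chosen after its values were seen, was also highest in control replicate 1 and next in control replicate 2, with 137993, 59764 and 4878 CPM in the controls, against 3520 and 1433 CPM in the deletion-labelled libraries. Of the 8 seminal vesicle genes, 6 (75%) were lower in both deletion-labelled libraries than in each control, against 12.5% of all tested genes. The other 2, Svs2 and Pate4, overlapped, with log2 fold changes of 0.12 and 0.25. The part of that tissue in the Timp1 level was not tested. In whole-tissue RNA, fewer cells of a type and less RNA per cell cannot be told apart.

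The 7 fibroblast markers summed to 1415, 922 and 2589 CPM in the controls and to 3266 and 1427 CPM in the deletion-labelled libraries. Mmp2, Timp2, Timp3 and Adamts1 each had their lowest CPM in control replicate 2 and their highest in deletion-labelled replicate 1, as this sum did, a set of genes chosen after their values were seen. Of the fibroblast markers, Col1a1 and Dpt did not follow the sum. Col1a1 was lowest in control replicate 1 and highest in control replicate 3. Dpt was highest in control replicate 1, at 129 CPM, and lowest in deletion-labelled replicate 2, at 18.0 CPM. Each other fibroblast marker followed the sum. The 7 smooth muscle markers were also lowest in control replicate 2, at 2240 CPM, against 5521 to 7636 CPM elsewhere. The 5 endothelial markers ran from 62.6 CPM in control replicate 2 to 124 CPM in deletion-labelled replicate 1. All 6 adipocyte markers (100%) were higher in both deletion-labelled libraries than in each control, against 10.8% of all tested genes. Their sums were 2.35, 1.18 and 2.36 CPM against 15.2 and 4.82 CPM. These genes had few counts, from 34 for Lep to 459 for Fabp4 over all libraries. Of 4 basal epithelial markers, Krt5, Krt14 and Krt17 (75%) were lower in both deletion-labelled libraries than in each control, against 12.5% of all tested genes. The fourth, Trp63, overlapped, with a log2 fold change of -0.05. The list summed to 93.8, 90.0 and 78.2 CPM against 71.8 and 70.5 CPM. The part of these cell types was not tested.

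Within each library, the make-up of the families was compared by TPM. In control replicate 1, Timp1 was the most abundant member and gave 42.2% of the summed TPM of the 4 TIMPs. Its share was 24.8% in control replicate 2, 2.44% in control replicate 3, and 4.32% and 2.09% in the deletion-labelled libraries. Timp2 and Timp3 together made up most of the rest, with Timp2 at 32.3 to 52.2% and Timp3 at 25.4 to 48.9%. Mmp7 gave 0.892%, 35.2% and 11.9% of the summed TPM of the MMPs in the controls, against 55.6% and 16.7% in the deletion-labelled libraries. It was the most abundant member of all in control replicate 2 and in deletion-labelled replicate 1. The summed TPM of TIMPs over that of MMPs was 1.76, 0.515 and 0.968 in the controls and 0.622 and 0.910 in the deletion-labelled libraries. Without Timp1 and Mmp7, a ratio formed after their values were seen, this was 1.03, 0.597 and 1.07 against 1.34 and 1.07. Of the summed ADAMTS TPM, Adamts1 gave 5.13 to 26.04%, Adamts9 12.9 to 19.5% and Adamts15 10.9 to 20.1%.

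**Figure D4:**
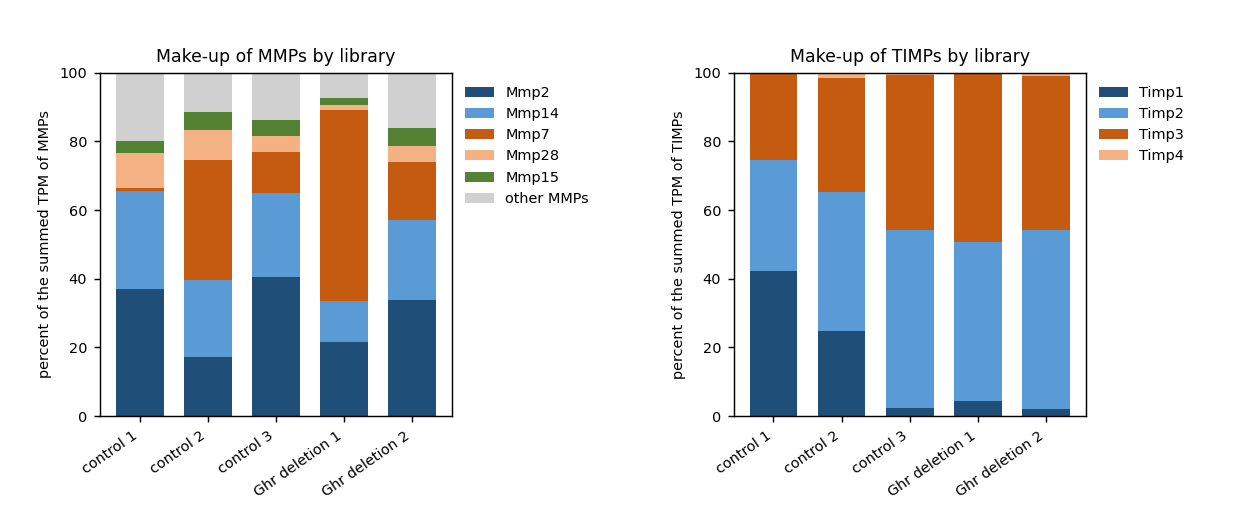
Share of each named gene in the summed TPM of the MMPs (left) and of the TIMPs (right), in percent, with 1 bar per library. Mmp7 ran from 0.892% to 55.6% of MMP TPM, and Timp1 was at 42.2% and 24.8% of TIMP TPM in control replicates 1 and 2 and at 4.32% or less in the other 3 libraries.

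RSEM's effective length, an average over the isoforms it assigned reads to, differed between libraries for several members. It differed at least 1.5-fold between the lowest and highest library for 10 of 36 tested members (27.8%) and for 12.7% of all tested genes. For Mmp19, a widely expressed MMP (ENSMUSG00000025355, chromosome 10, 128790910 to 128800824), it was 1189, 1307 and 2885 bases in the controls, against 2803 and 3035 bases in the deletion-labelled libraries. Control replicate 3 thus sided with the deletion-labelled libraries. Mmp19 and Tmem198b, on the opposite strand at 6.73 to 8.99 CPM, share 789 exon bases, and the part of these reads in the length was not tested. For Adamts17 it was 3081, 2580 and 3079 bases in the controls and shorter in both deletion-labelled libraries, at 1813 and 2204 bases. For Mmp9 it was 2419, 1884 and 2952 bases against 2043 and 1521 bases, which overlapped. With these lengths as offsets in the model, the log2 fold change became -0.52 for Mmp19, -0.98 for Adamts17 and 1.21 for Mmp9. These lengths rest on few reads, as Mmp9 had 28 to 213 counts per library.

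**Figure D5:**
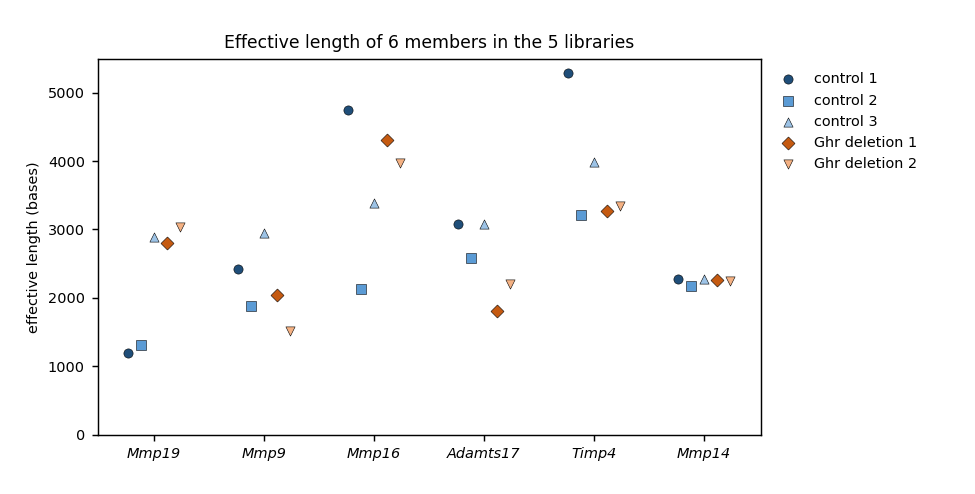
Effective length in bases of 6 members in each library, 1 symbol per library. Mmp19 was at 1189 and 1307 bases in control replicates 1 and 2 and between 2803 and 3035 bases elsewhere, while Mmp14, shown for comparison, stayed between 2170 and 2279 bases.

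Genes that act with these proteases were read from the same fit. Of 21 activators, inhibitors and cofactors of MMPs, 18 were tested, and 0 passed in either direction. Plg, plasminogen, had 0.555, 0.257 and 0.331 CPM in the controls, against 0.0454 and 0.0252 CPM in the deletion-labelled libraries (log2 fold change -3.27, SE 0.79, adjusted p = 0.874), from 32 counts in all. Lcn2, lipocalin 2, which forms a complex with Mmp9, had 28.8, 17.0 and 73.3 CPM against 451.3 and 83.3 CPM, so both deletion-labelled values were above each control (2.75, SE 0.87). Furin, the convertase that cuts the propeptides of Mmp11, Mmp14 and Mmp28, had 48.9, 72.5 and 36.5 CPM against 30.6 and 25.5 CPM (-0.91, SE 0.33). For Furin, too, both deletion-labelled values lay outside the controls, but control replicate 3 was nearer to them than to the other controls. None of these genes passed. Of the 18 tested, 4 (22.2%) were higher in both deletion-labelled libraries than in each control, and 2 (11.1%) were lower. Over all tested genes these shares were 10.8% and 12.5%.

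Of 18 ADAMTS-like proteins and ADAMTS substrates, 15 were tested and 0 passed. Adamtsl5, a relative without a protease domain, had 5.74, 6.22 and 3.95 CPM in the controls, against 2.63 and 3.38 CPM in the deletion-labelled libraries (-0.81, SE 0.34). Here, too, control replicate 3 was nearer to the deletion-labelled values than to the other controls. Of the 15 tested, 1 (6.67%) was lower in both deletion-labelled libraries than in each control, and 0 were higher. Over all tested genes these shares were 12.5% and 10.8%. For Adamtsl4 the log2 fold change was -0.53 (SE 0.33), and for Vcan, versican, a main substrate of Adamts1, Adamts5 and Adamts9, it was -0.44 (SE 0.53). Vcan was named for that role after its values were seen. Of 12 membrane ADAMs, 11 were tested and 0 passed. Adam23, a catalytically inactive adhesion protein, had 15.4, 35.2 and 14.3 CPM against 144.8 and 44.1 CPM (2.13, SE 0.62), and Adam15 had 25.1, 37.6 and 31.9 CPM against 19.2 and 20.7 CPM (-0.66, SE 0.24). Each separated the groups without passing, both with an adjusted p of 0.874 by edgeR. Each was 1 of the 11 tested (9.09%) on its side. Over all tested genes, 10.8% separated the groups on the higher side and 12.5% on the lower side. Of 7 astacin proteinases and procollagen enhancers, 5 were tested and 0 passed, with Pcolce2 at 1.24 (SE 0.74) and Bmp1, the procollagen C-proteinase, at -0.57 (SE 0.44).

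Calls among members appeared under 3 of 17 alternative settings. On log2(TPM + 1), limma called 9 members higher, Mmp3, Mmp7, Mmp9, Mmp11, Mmp12, Adamts1, Adamts4, Adamts5 and Adamts12, where it called 12.0% of all tested genes higher and the median of all genes was shifted by 0.87. On log2(TPM + 0.1), it called Mmp3, Mmp7 and Mmp9 higher, beside 3.69% of all tested genes and a shift of 1.33. After subtracting the shift of 0.87, 4 of the 9 were below 0, Mmp3 and Mmp12 at -0.46 each, Adamts4 at -0.59 and Adamts12 at -0.10, while Mmp7 was at 2.30. After subtracting that of 1.33, Mmp7 was at 2.49, Mmp9 at 0.97 and Mmp3 at 0.45. With the replicate number as a block in edgeR, Mmp28 (adjusted p = 0.0181) and Timp1 (adjusted p = 6.945e-05) were called lower. This was beside 3.09% of all tested genes, and nothing in the labels pairs the numbers. Number 3 occurs only among the controls, so its block took up control replicate 3. These fold changes and p-values thus rest on replicates 1 and 2 of each group.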

How the data were processed

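Per the labels' protocols, RNA of flash-frozen dorsolateral prostate went into a stranded total RNA kit. GRCm38, RSEM 1.3.0, STAR 2.5.3a and bcl2fastq 2.20.422 are named in the submitters' processing notes. How RSEM was set for strand, and which annotation it used, is not given in the sources used here. Per gene, expected counts, TPM and effective length (another quantity, in bases) were deposited by the authors. Expected counts share reads among genes and isoforms by a model, so antisense overlaps and similar genes are uncertain.

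Expected counts were rounded, filtered with filterByExpr and scaled by TMM. They were compared with edgeR 4.0.16 (quasi-likelihood, R 4.3.3) across all genes with group as the only term. This step was tested on simulated counts in which all controls shared the same mean for each gene, which does not cover controls as unlike as these. Alternatives used DESeq2 1.42.0, limma 3.58.1, other scalings, filters, length offsets, left-out libraries and a replicate block. Standard errors came from the fold change and its F statistic. Symbols were paired for 99.5% of identifiers. Coordinates and overlaps are from GENCODE M21 (GRCm38), and BLAST+ 2.17.0 searched for similar transcripts. Members and lists were chosen with earlier results of these data known. Per-library values are given for the 12 members with the smallest p, the 8 with the highest mean TPM, all TIMPs, and members at a mean of at least 1 CPM whose groups did not overlap. Of each related list, 2 or 3 genes were named by smallest p, and Vcan was added for its role.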

Additional observations from a re-analysis of the deposited data

How the results depend on the processing

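Over all genes, 0 were called in the main fit, with 792 at an unadjusted p under 0.05. DESeq2 called 81, no low-count filter 2, log2(TPM + 1) 2294 and log2(TPM + 0.1) 733, and leaving out 1 library gave 0 to 48, the 48 without control replicate 3. Members called were 0 in the main fit, 9 on log2(TPM + 1) and 3 on log2(TPM + 0.1), and 0 in every left-out library. The replicate block called 1126 genes and 2 members. It left control replicate 3 out of the comparison of groups, as number 3 occurs only there. Same-numbered samples share only a number here, and their deviations from the group means had correlations of 0.298 and 0.261. With 2 deletion-labelled libraries, the deviation of 1 is the negative of the other. The 2 correlations are therefore not independent and do not decide whether the numbers pair samples. The block also turned the log2 fold change of Adamts8 to 0.26, Adamts9 to 0.05, Mmp17 to 0.36 and Timp4 to 0.34.

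Of 36 tested members, 12 kept their direction in every alternative and 18 in every left-out library in which they were tested. Mmp13, counted among the 18, was not tested without control replicate 1, which held its highest value. The filter at 1 CPM left out Adamts4, Adamts18, Mmp3, Mmp12 and Mmp13. Fold changes are given relative to the median of all genes where a setting moved it by over 0.1 (0.58 with library size only, 0.87 and 1.33 on the TPM scales). With 1 library left out, ranges that crossed 0 were -0.05 to 0.84 for Adamts12, -0.29 to 0.27 for Adamts15, -1.11 to 0.57 for Adamts18, -0.97 to 0.46 for Adamts2, -1.87 to 0.29 for Adamts20, -0.45 to 0.39 for Adamts7, -0.69 to 0.24 for Adamts8, -0.17 to 0.18 for Adamts9, -1.60 to 0.32 for Mmp12, -0.35 to 0.04 for Mmp14, -0.18 to 0.14 for Mmp15, -0.01 to 0.38 for Mmp16, -0.40 to 0.26 for Mmp17, -0.04 to 0.63 for Mmp19, -0.14 to 0.54 for Mmp2, -0.36 to 3.43 for Mmp7, -0.07 to 0.41 for Timp2 and -0.72 to 0.14 for Timp4. With control replicate 3 as the lone control, assumed to vary like the others (control replicates 1 and 2 left out), values turned to -0.08 for Adamts12, -0.24 for Adamts15, 0.19 for Adamts18, 0.14 for Adamts19, 0.12 for Adamts7, 0.12 for Mmp12, 0.67 for Mmp13, 0.02 for Mmp14, 0.04 for Mmp15, -0.29 for Mmp24 and 0.78 for Timp1. With effective lengths as offsets they turned to 0.05 for Adamts9, 0.03 for Mmp12, -0.17 for Mmp16 and -0.52 for Mmp19. On log2(TPM + 1) they turned to -0.10 for Adamts12, -0.59 for Adamts4, 0.33 for Adamts9, 0.33 for Mmp14, 0.06 for Mmp15, -0.32 for Mmp16, -0.35 for Mmp19, -0.72 for Mmp24 and -0.46 for Mmp3. On log2(TPM + 0.1) they turned to -0.03 for Adamts4, 0.17 for Adamts9, -0.19 for Mmp16, -0.37 for Mmp19 and -0.53 for Mmp24. Adamts9 turned to 0.03 with library size only, 0.02 with limma-voom, 0.04 with no low-count filter and 0.02 with upper-quartile factors, and Adamts15 to -0.04 with library size only. The cause of these reversals was not tested.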

Other observations

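Of the 4 TIMP genes, 3 lie inside synapsin genes on the opposite strand. Syn1, which spans Timp1, had 0.988, 5.24 and 0.573 CPM in the controls, against 0.839 and 1.19 CPM in the deletion-labelled libraries, and it shares 0 exon bases with Timp1. Syn3, which spans Timp3 and shares 1733 exon bases with it, had 4.81, 14.5 and 2.58 CPM against 4.61 and 5.15 CPM. Syn2, which spans Timp4 and shares 90 exon bases with it, had 0.247, 11.4 and 9.97 CPM against 14.3 and 10.2 CPM. Control replicate 1 was lowest both for Syn2 and for Timp4. Syn2 was highest in deletion-labelled replicate 1, where Timp4, at 1.18 CPM, was below every library but control replicate 1. Syn1 and Syn3 were highest in control replicate 2, where Timp3 was lowest. These comparisons were picked after the values were seen, and the part of shared reads was not tested.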
